A study of Mus musculus with 8 samples.

Results

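A set of 9 genes of the interleukin-2 axis was followed across the cells of B16-OVA tumors. They are *Il2*, the receptor chain genes *Il2ra*, *Il2rb* and *Il2rg*, the feedback inhibitors *Cish*, *Socs1*, *Socs2* and *Socs3*, and *Pim1*. They were taken by symbol from the deposited gene list, which held all 9 of them among 27998 genes. B16-OVA is a mouse B16 melanoma line that carries ovalbumin, and the tumors grew in female C57BL/6 mice aged 7 weeks when the tumor cells were injected. CD45+ cells were sorted with enrichment for CD8+ T cells and sequenced with the 10x 5′ assay, in which a unique molecular identifier (UMI) stands for 1 captured transcript. There were 8 libraries, with the tumors of 5 mice pooled per condition and 1 library per treatment and day. Mice received adoptive cell transfer (ACT) of OT1 cells, CD8+ T cells whose receptor recognises ovalbumin, without lymphodepletion. Untransduced OT1 cells were given in the libraries of days 5 and 12 called untransduced ACT. PD1d/IL-2v ACT and PD1d/IL-33 ACT were collected at day 12. An equal mixture of both kinds of engineered cell (PD1d/IL-2v/IL-33 ACT, here called the combination) was collected at days 5, 12 and 26, and the non-treated library, labelled day 5, came from tumors without transfer. All engineered cells carried retroviral vectors and secreted PD1d, a decoy of the PD-1 ectodomain fused to the Fc of human IgG4. Untransduced OT1 cells were added so that treated groups had like numbers of transduced cells. IL-2v is an IL-2 variant that does not engage CD25, and IL-33 is a cytokine of the IL-1 family. Transferred and endogenous CD8+ T cells were not told apart, and whether transcripts of the IL-2v vector count as *Il2* was not tested.

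IL-2 is secreted mainly by activated T cells and binds a receptor of 3 chains. *Il2ra* encodes CD25, which raises affinity and is typical of regulatory T cells and recently activated T cells. *Il2rb* encodes CD122, shared with the IL-15 receptor, and *Il2rg* encodes the common gamma chain, shared by several cytokine receptors. CD122 and the gamma chain signal through JAK1 and JAK3 to STAT5, and *Cish* and *Socs2* are well-known STAT5 target genes whose proteins dampen the same pathway. *Socs1* and *Socs3* encode inhibitors of JAK signalling that interferons and IL-6 family cytokines also induce, and *Pim1* encodes a survival kinase induced by STAT signalling.

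The start regions of *Cish* and *Socs3* are shown because STAT5 binds DNA at TTCNNNGAA and these were the only ones, among the 7 members with a RefSeq promoter entry, to hold that motif. No entry was given for *Il2rb* or *Socs2*. Each line gives 250 bases before and 30 bases from the RefSeq start in GRCm38.p6, at chr9:107296409-107296688 on the plus strand for *Cish* and chr11:117969337-117969616 on the minus strand for *Socs3*, with matches to the motif in capitals.
Cish: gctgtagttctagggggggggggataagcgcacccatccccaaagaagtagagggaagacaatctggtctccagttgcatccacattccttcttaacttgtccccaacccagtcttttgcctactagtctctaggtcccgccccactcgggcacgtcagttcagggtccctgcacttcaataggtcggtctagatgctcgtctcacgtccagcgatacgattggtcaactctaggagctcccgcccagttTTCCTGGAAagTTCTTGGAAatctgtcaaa
Socs3: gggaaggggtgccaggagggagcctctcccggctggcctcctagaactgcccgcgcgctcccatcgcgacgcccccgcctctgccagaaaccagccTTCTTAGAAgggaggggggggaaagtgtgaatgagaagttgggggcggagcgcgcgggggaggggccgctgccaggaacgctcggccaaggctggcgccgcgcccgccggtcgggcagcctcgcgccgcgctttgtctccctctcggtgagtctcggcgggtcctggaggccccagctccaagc
*Cish* held 2 matches, TTCCTGGAA from base +1 and TTCTTGGAA from base +12, counted from the annotated start. *Socs3* held 1 match, TTCTTAGAA, at -154. The motif is its own reverse complement, so both strands were covered, and 2726 of 32851 RefSeq promoters of 300 bases (8.30%) held at least 1 match, whereas 150 (0.457%) held at least 2. A match describes these letters and is no measure of binding.

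The deposited matrix held 15700 barcodes and 98669511 UMIs, from 1387032 UMIs in untransduced ACT at day 12 to 24917112 at day 26 of the combination. Of these barcodes, 12827 passed the cell filter, 202 to 3655 per library, with medians of 4403.5 to 7297 UMIs, and 95 barcode sequences of passing cells occurred in more than 1 library. Cells were gated by raw UMIs of markers that include no gene under study. There were 5106 CD8 T cells, 411 CD4 T cells with a *Foxp3* UMI, 793 CD4 T cells without one, 1850 NK cells and 157 type 2 cells (*Il1rl1* and *Gata3* with neither *Cd4* nor *Cd8*). Another 156 macrophage-like cells served as the class that should lack CD25. Summed T cell markers, which include genes of the gates, were at 3187 to 6229 CPM (counts per 1e6 UMIs) in CD8 T cells, and macrophage markers at 10.9 to 57.7 CPM in the same cells. In Foxp3-negative CD4 T cells the type 2 markers exceeded the T cell markers in 3 of 6 libraries, at 13522 against 2068 CPM at day 5 of the combination, 3563 against 3292 CPM with PD1d/IL-33 and 3022 against 2837 CPM at day 12 of the combination. Type 2 cells held 617 to 906 CPM of T cell markers, and 66.9% of them had a *Cd3g* UMI. The Foxp3-negative CD4 class can hold regulatory T cells whose *Foxp3* was not captured, since its median was 4147 UMIs per cell against 5812 in the Foxp3-positive class. A level below is the CPM of a gene over all UMIs of a class in a library of at least 20 such cells, with a 95% Poisson interval that covers counting error only and not the difference between mice.

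*Il2*, the ligand, was rare. It had 523 UMIs in passing cells and was detected in 1.98% of them. CD8 T cells, 39.8% of passing cells, held 51.1% of its UMIs, and Foxp3-negative CD4 T cells, 6.18% of passing cells, held 28.9%. NK cells (14.4% of passing cells) and Foxp3-positive cells (3.20%) each held 0.574% of the *Il2* UMIs. In CD8 T cells it stood at 9.39 CPM with untransduced cells at day 5, 14.5 CPM at day 12 (4 UMIs), 1.80 CPM with PD1d/IL-33 and 2.98 CPM with PD1d/IL-2v, then at 2.93, 0.432 and 11.9 CPM at days 5, 12 and 26 of the combination, and it had 0 UMIs in non-treated tumors. Single cells carried much of this. Here 1 cell held 39 of the 47 *Il2* UMIs of untransduced ACT at day 5, and without it the level was 1.60 CPM. At day 26, by contrast, 179 UMIs lay in 94 cells, and the level without the highest cell was 8.84 CPM. In Foxp3-negative CD4 T cells the level reached 114 CPM with PD1d/IL-33 and 93.5 CPM with the combination at day 12, but 33 of 34 and 47 of 48 UMIs were in 1 cell each, and 3.40 and 1.97 CPM remained without them. The 47 UMIs of day 26 (36.3 CPM) were spread over 34 cells.

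*Il2ra* (CD25) differed widely between the cell classes. Foxp3-positive CD4 T cells had 412 CPM with untransduced cells at day 5 and 444 CPM with PD1d/IL-2v, and 1066, 763 and 390 CPM at days 5, 12 and 26 of the combination. Type 2 cells had 1223, 294 and 99.1 CPM at those 3 times of the combination, the libraries that held enough of them. All 5 Foxp3-positive values lay above the highest CD8 T value. Foxp3-negative CD4 T cells ranged from 35.6 to 577 CPM, CD8 T cells from 14.5 to 148 CPM and NK cells from 5.31 to 25.6 CPM, so that each of these neighbours overlapped. Macrophage-like cells had 3.63 CPM with PD1d/IL-2v and 1.10 CPM at day 5 of the combination. After each cell was thinned to 2000 UMIs, 1.87% to 12.4% of CD8 T cells and 40.0% to 76.3% of Foxp3-positive cells had an *Il2ra* UMI, against 0 of 79 macrophage-like cells at day 5 of the combination, which allows a share of up to 3.80%. Without thinning, the shares were 5.68% to 29.8% of CD8 T cells and 1.27% of those macrophage-like cells, whose class had a median of 11274 UMIs against 6092 in CD8 T cells. The CD8 T shares at or under 3.80% are therefore no higher than that limit, and they are those of the non-treated library, untransduced and PD1d/IL-33 ACT at day 12, and day 26.

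**Figure D1:**
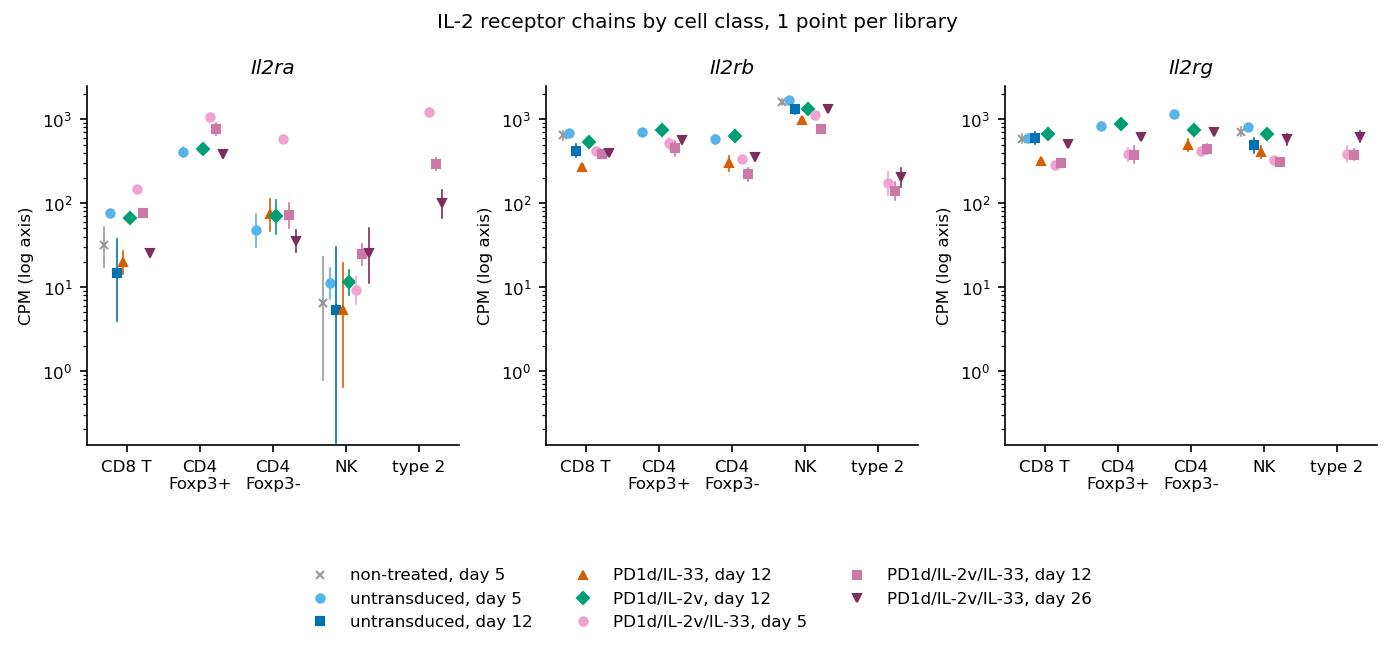
Level of *Il2ra*, *Il2rb* and *Il2rg* in CPM on a log axis, by cell class, with 1 point per library of at least 20 cells and bars for 95% Poisson intervals. *Il2ra* runs from 5.31 CPM in NK cells to 1223 CPM in type 2 cells, *Il2rb* is highest in NK cells (769 to 1713 CPM), and *Il2rg* differs less between classes than between libraries.

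Tested between classes of the same libraries, with edgeR's quasi-likelihood test, the library as a block and Benjamini-Hochberg adjustment over all genes, *Il2ra* was higher in Foxp3-positive than in Foxp3-negative CD4 T cells by 2.50 on the log2 scale (SE 0.288, adjusted p = 3.10e-06, 5 of 5 libraries). Against CD8 T cells the edgeR difference was 2.85 (SE 0.154, adjusted p = 4.35e-13). NK cells were lower than CD8 T cells by a log2 difference of -2.58 (SE 0.261, edgeR adjusted p = 2.14e-07), with 1 of 8 libraries in the other direction. Type 2 cells were above Foxp3-negative CD4 T cells by 1.60 (SE 0.225, edgeR adjusted p = 9.70e-04, 3 of 3 libraries), a call that was lost without day 12 of the combination (1.35, adjusted p = 0.0757) and without cycling cells (0.99, adjusted p = 0.132). In the contrast of the CD4 classes, 605 of 8059 genes (7.51%) were called higher and 573 (7.11%) lower, and of the 9 genes of the axis 2 were higher and 2 lower. The libraries differ in treatment and day, so that these p-values measure the spread over such libraries and not over repeats of a treatment.

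*Il2rb* (CD122) was highest in NK cells. NK cells had 769 to 1713 CPM, and the 8 CD8 T values were 643 CPM in non-treated tumors, 696 and 425 CPM for the untransduced days 5 and 12, 267 CPM with PD1d/IL-33, 535 CPM with PD1d/IL-2v, and 415, 387 and 394 CPM at days 5, 12 and 26 of the combination. The 2 ranges did not overlap, and NK cells were higher in 8 of 8 libraries (log2 difference 1.36, SE 0.083, edgeR adjusted p = 1.40e-10). In that contrast 1780 of 11093 genes (16%) were called higher in NK cells and 2215 (20%) lower, and the genes of the axis gave 2 higher and 3 lower of 9. Foxp3-positive CD4 T cells had 454 to 741 CPM of *Il2rb* and exceeded Foxp3-negative cells by 0.49 (SE 0.127, edgeR adjusted p = 0.0115, 5 of 5 libraries). That call was lost without the day 12 or the day 26 library of the combination (adjusted p = 0.0694 and 0.0731). Type 2 cells had 141 to 205 CPM, below the other 4 lymphoid classes, and the difference from Foxp3-negative CD4 T cells was -0.66 with an edgeR adjusted p of 0.0667.

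*Il2rg*, the common gamma chain, was found in 86.2% of passing cells, including macrophage-like ones (320 and 165 CPM in the libraries with at least 20). Its medians were 549 CPM in CD8 T cells, 622 CPM in Foxp3-positive and 595 CPM in Foxp3-negative CD4 T cells, 535 CPM in NK cells and 390 CPM in type 2 cells. None of the edgeR contrasts between classes called it, for example NK against CD8 T cells (0.08, adjusted p = 0.482) or Foxp3-positive against Foxp3-negative cells (-0.20, adjusted p = 0.331).

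Among the feedback inhibitors, *Cish* was highest in type 2 and Foxp3-negative CD4 T cells. Type 2 cells had 439, 195 and 255 CPM at days 5, 12 and 26 of the combination. Foxp3-negative cells had 259 CPM with untransduced cells at day 5, 167 CPM with PD1d/IL-33, 134 CPM with PD1d/IL-2v and 320, 253 and 121 CPM over the 3 times of the combination. Foxp3-positive cells stood at 125 to 164 CPM, CD8 T cells at 48.6 to 124 CPM and NK cells at 32.3 to 97.1 CPM. Neighbouring classes in this order overlapped, except Foxp3-positive and CD8 T cells, whose nearest values were 125 and 124 CPM. *Cish* was higher in Foxp3-positive than in CD8 T cells (log2 difference 0.50, SE 0.156, edgeR adjusted p = 0.0196), but not without untransduced ACT at day 5 (adjusted p = 0.0683) or without day 26 (0.31, adjusted p = 0.163). Its difference between the CD4 classes was -0.55 (edgeR adjusted p = 0.0904), which reached -0.86 (adjusted p = 0.00566) without day 26. NK cells were below CD8 T cells by a log2 difference of -0.36 (SE 0.12, edgeR adjusted p = 0.0263, lower in 6 of 8 libraries), a call lost without the non-treated library (adjusted p = 0.0593) or the combination at day 12 (adjusted p = 0.0759).

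*Socs2* was higher in CD4 T cells than in CD8 T cells. Its level was 44.9 to 101 CPM in Foxp3-positive and 24.2 to 182 CPM in Foxp3-negative CD4 T cells and 55.7 to 115 CPM in type 2 cells, but 0 to 37.3 CPM in CD8 T cells and 4.60 to 19.2 CPM in NK cells. Foxp3-positive cells exceeded CD8 T cells by 2.16 (SE 0.260, edgeR adjusted p = 6.29e-07), and the CD4 classes differed by 0.02 (adjusted p = 0.983). That last result depended on the gate. With gates of 2 UMIs, which left 3 libraries, *Socs2* was higher with *Foxp3* by 1.56 (edgeR adjusted p = 0.0118). *Socs3* differed between the CD4 classes. Foxp3-negative cells had 268, 244, 164, 85.7 and 196 CPM with untransduced cells at day 5, with PD1d/IL-2v and at days 5, 12 and 26 of the combination, whereas Foxp3-positive cells of those libraries had 65.9, 59.5, 85.4, 54.9 and 78.3 CPM. It was lower with *Foxp3* in each of the 5 libraries (log2 difference -1.54, SE 0.178, edgeR adjusted p = 3.14e-06). *Socs1* had medians of 105 to 156 CPM over the 5 classes and was called in none of the edgeR contrasts.

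*Pim1*, the survival kinase, was higher in Foxp3-positive CD4 T cells (369 to 490 CPM) and in NK cells (134 to 497 CPM) than in CD8 T cells (69.0 to 216 CPM). The difference was 1.33 for Foxp3-positive cells (SE 0.129, edgeR adjusted p = 1.69e-08) and 0.94 for NK cells (SE 0.155, edgeR adjusted p = 8.69e-05, 8 of 8 libraries). In the contrast of Foxp3-positive with CD8 T cells, 1177 of 10735 genes (11%) were called higher and 1492 (13.9%) lower, and 4 of 9 genes of the axis were higher (*Il2ra*, *Cish*, *Socs2* and *Pim1*) and 1 lower (*Il2*). In the contrast of type 2 with Foxp3-negative CD4 T cells, 122 of 6561 genes (1.86%) were called higher and 154 (2.35%) lower, with *Il2ra* higher and *Il2* lower (-3.36, SE 0.677, edgeR adjusted p = 0.012). The *Il2* call was lost without day 12 of the combination (-1.57, adjusted p = 0.628), where 1 cell held 47 of the 48 UMIs of the Foxp3-negative class. It was also lost under the narrower cell filter of the study's second experiment (adjusted p = 0.109), with no library block (adjusted p = 0.631) and with DESeq2 (-1.92, adjusted p = 1).

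**Figure D2:**
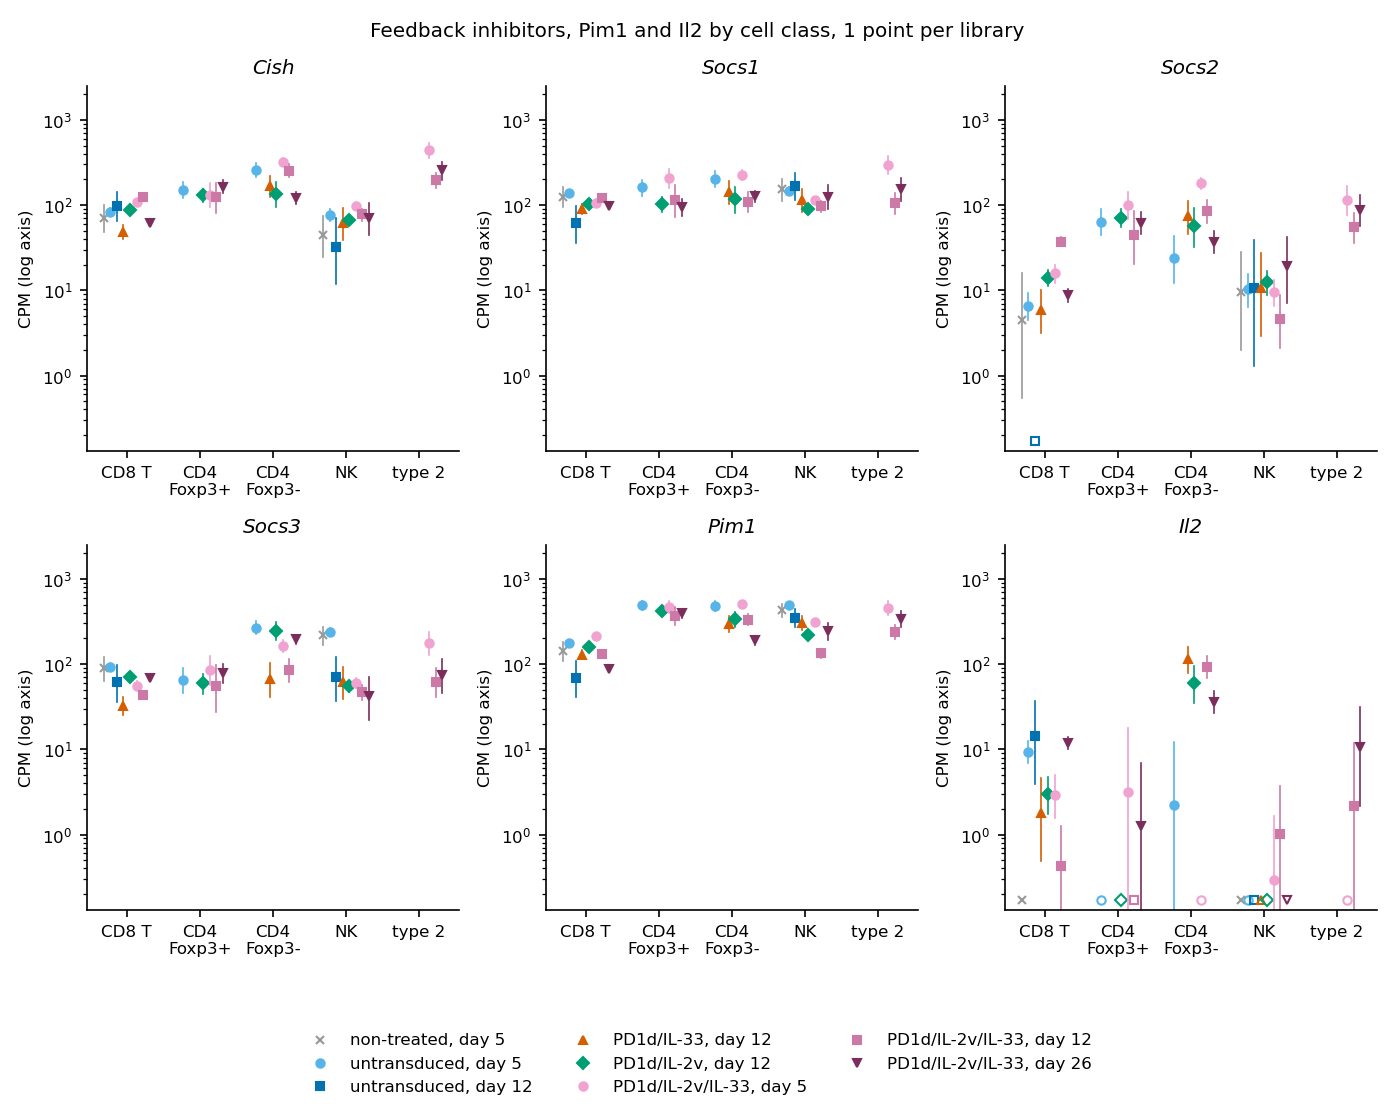
Level of *Cish*, *Socs1*, *Socs2*, *Socs3*, *Pim1* and *Il2* in CPM on a log axis, by cell class, with 1 point per library and bars for 95% Poisson intervals. Open symbols, and grey crosses without a bar, in the lowest row stand for 0 UMIs. *Socs2* is at 44.9 CPM or more in Foxp3-positive cells and at 37.3 CPM or less in CD8 T cells.

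*Il2ra* in CD8 T cells varied between libraries. Its level was 31.3 CPM in non-treated tumors (interval 17.1 to 52.5), 75.9 CPM with untransduced cells at day 5 (68.5 to 83.9) and 14.5 CPM at day 12 (3.96 to 37.2, 4 UMIs in 42 cells). It was 19.8 CPM with PD1d/IL-33 (14.4 to 26.6) and 67.2 CPM with PD1d/IL-2v (60.6 to 74.2), and 148, 75.5 and 25.4 CPM at days 5, 12 and 26 of the combination (137 to 160, 69.2 to 82.3 and 22.9 to 28.0). The 4 libraries with IL-2v therefore spanned 25.4 to 148 CPM and overlapped the 4 without (14.5 to 75.9 CPM). At day 12, both libraries with IL-2v lay above both without it. At day 5, untransduced ACT was as high as the IL-2v libraries of day 12.

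Pairs of libraries were compared by the log2 ratio of CPM after 10 CPM were added to each, which understates the change of low genes, and a ratio was called at 2-fold (1 on the log2 scale) where the pair held at least 50 UMIs of the gene. With 1 library per treatment and day no difference has a replicate check and no p-value is given. The median ratio of all genes lay between -0.20 and 0.21 over these pairs, and pairs that share a library are not independent. Each library also carried an NXT code in the deposit, here its run code, whose meaning the labels do not give. It differed between PD1d/IL-2v (NXT0356) and untransduced ACT (NXT0352) at day 12. It also differed between the combination and PD1d/IL-33 ACT at day 12 (NXT0352, NXT0356). The combination and untransduced ACT at day 5 had NXT0351 and NXT0347. In these pairs run code and treatment cannot be told apart. For PD1d/IL-2v over untransduced ACT at day 12, CD8 T cells had *Il2ra* at 1.65 (95% interval 0.70 to 2.48) and *Pim1* at 1.10 (0.52 to 1.72), while *Cish* differed by -0.15 (-0.67 to 0.39). *Socs2* was called as well, at 14.0 CPM against 0 UMIs, but 3 UMIs would give 10.9 CPM in that small library. Of 8 genes of the axis with enough UMIs 3 were called higher and 0 lower, where 5.07% of 7557 genes were called either way. Against untransduced ACT at day 5 instead, *Il2ra* was at -0.16 and *Pim1* at -0.15, and no gene of the axis was called. NK cells had 0 of 6 genes called in this pair (5.94% of genes). For PD1d/IL-33 over untransduced ACT at day 12, where *Il2rg* was at -0.91 and *Cish* at -0.88, 0 of 6 genes were called in CD8 T cells (5.63% of genes) and 0 of 4 in NK cells (3.35%).

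*Il2ra* also differed between the libraries with IL-33 that had or lacked IL-2v. For the combination over PD1d/IL-33 ACT at day 12, CD8 T cells had *Il2ra* at 1.52 (1.21 to 1.83), *Cish* at 1.19 (0.95 to 1.44) and *Socs2* at 1.58 (1.21 to 1.88). These were the 3 genes called of 8, against 1.78% of 8429 genes, and *Il2rg* (-0.06) and *Pim1* (0.02) were near 0. In thinned cells the *Il2ra* ratio was 1.18, and under the second experiment's cell filter it was 0.79. For PD1d/IL-2v over PD1d/IL-33 ACT, which share a run code, *Il2ra* was at 1.37 (1.05 to 1.69) and *Il2rg* at 1.05 (0.94 to 1.17), 2 of 8 genes called against 3.05%. In that pair Foxp3-negative CD4 T cells had *Il2rb* at 1.06 and *Socs3* at 1.73, 2 of 7 genes called (11.4% of genes), of which *Il2rb* fell to 0.91 without the cells with the most UMIs, and NK cells had 0 of 6 (6.67%). Summed NK cell markers of the Foxp3-negative class differed in that pair too, at 527 against 6.69 CPM, as did regulatory T cell markers, at 2891 against 1014 CPM. Foxp3-negative CD4 T cells had none of 9 genes called between the combination and PD1d/IL-33 ACT at day 12 (2.57% of genes were), with *Il2ra* at -0.03. NK cells had *Il2ra* at 1.17, from 5.31 to 24.5 CPM, and *Pim1* at -1.13 (3.88% of genes called). The 5.31 CPM was only 2 UMIs in 84 cells, against 48 UMIs in the combination.

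At day 5, the combination was compared with untransduced ACT. In CD8 T cells *Il2ra* was at 0.88 (0.71 to 1.05), under the 2-fold limit, and at 0.20 in thinned cells, whereas *Il2rg* was at -1.05 (-1.14 to -0.96), the only gene called of 9 (3.13% of genes). *Il2rb* was at -0.73, *Socs3* at -0.65 and *Socs2* at 0.64. In CD4 T cells *Il2ra* was past 2-fold in both classes, at 1.35 (1.11 to 1.60) with *Foxp3*, where 10.7% of genes were called, and at 3.33 (2.80 to 3.88) without it, where 13.9% were. *Socs2* was also high in the Foxp3-negative cells, at 2.49 (1.81 to 3.15). *Il2rg* was lower in both classes, at -1.10 with *Foxp3* (1 gene higher and 1 lower of 8) and at -1.42 without it (2 higher and 1 lower of 8). NK cells had *Il2ra* at -0.15 and lower *Socs3* (-1.83) and *Il2rg* (-1.28), 2 of 8 genes called against 5.33% of genes.

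The high *Il2ra* of Foxp3-negative CD4 T cells at day 5 moved with *Il1rl1*, the gene of the IL-33 receptor ST2. The summed type 2 markers of this class stood at 13522 CPM in that library and at 429 to 3563 CPM in the other 5 with at least 20 cells. A split by an *Il1rl1* UMI was added after these values had been seen. In that library 87 cells with one had *Il2ra* at 785 CPM (721 to 854), and 60 without had 81.1 CPM (52.0 to 121). Their *Cish* levels were 364 and 216 CPM and their *Socs2* levels 214 and 105 CPM, with median depths of 7293 and 4522.5 UMIs. The cells with *Il1rl1* were also higher in *Il2ra* at day 12 (106 against 50.6 CPM), at day 26 (282 against 14.3 CPM) and after PD1d/IL-33 ACT (86.3 against 65.6 CPM). The intervals at day 12 and after PD1d/IL-33 ACT overlapped. Untransduced ACT at day 5 had the same order, with 4 such cells (348 against 34.5 CPM). After PD1d/IL-2v ACT the order was the reverse (52.4 against 73.6 CPM, 2 and 18 UMIs). The part of the cells with *Il1rl1* in the *Il2ra* level of the class was not tested further.

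**Figure D3:**
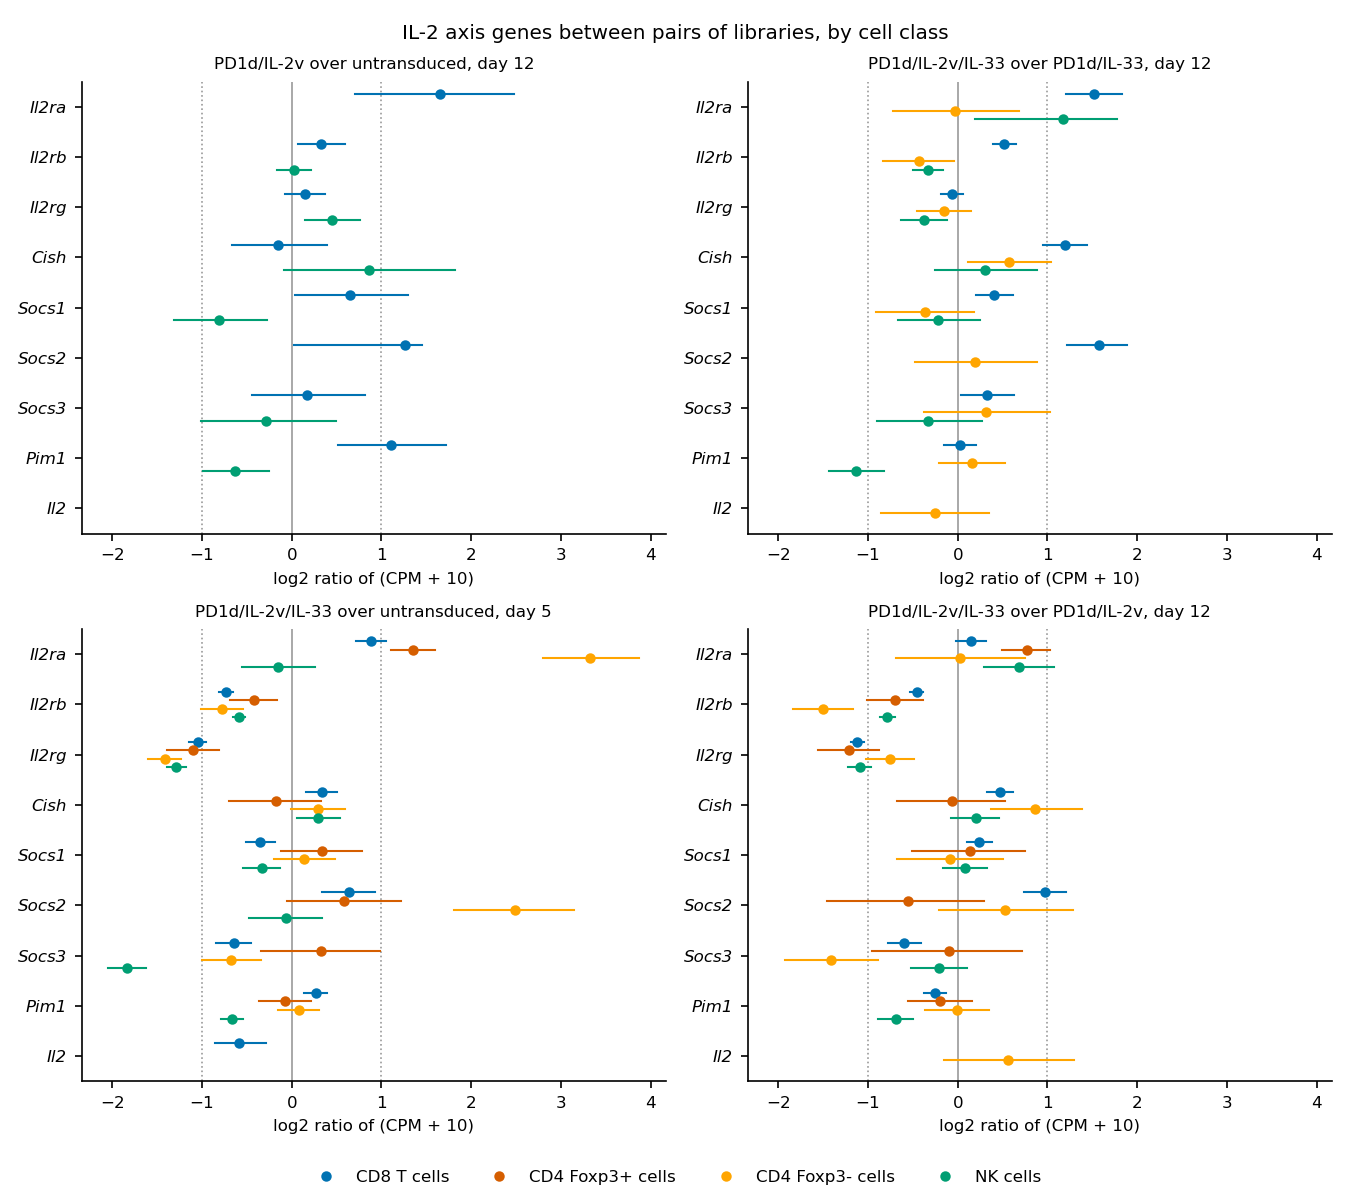
Log2 ratios of CPM + 10 between pairs of libraries, 1 row per gene, in CD8 T, CD4 and NK cells, with 95% intervals from Poisson counts, dotted lines at 2-fold, and only genes with at least 50 UMIs in the pair. *Il2ra* lies at 1.65 and 1.52 in the CD8 T cells of the upper panels, and *Il2rg* lies below 0 in each class of the lower panels.

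Between the combination and PD1d/IL-2v ACT at day 12, the 2 libraries that share IL-2v and differ in IL-33, CD8 T cells had *Il2ra* at 0.15 (-0.02 to 0.32) and *Socs2* at 0.98 (0.74 to 1.21). *Il2rg* was at -1.12 (-1.19 to -1.04), the 1 gene called of 8 (2.1% of genes). *Cish* was at 0.47 and *Il2rb* at -0.46. *Il2rg* was also lower in Foxp3-positive cells (-1.21, 9.43% of genes called) and NK cells (-1.09, 4.11%), and Foxp3-negative cells had lower *Il2rb* (-1.50) and *Socs3* (-1.41), with 9.7% of genes called. The 48 Foxp3-negative cells after PD1d/IL-2v ACT had summed NK cell markers at 527 CPM and regulatory T cell markers at 2891 CPM. In the combination these sums were 23.4 and 783 CPM, and their part in the 2 ratios was not tested.

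Set side by side over libraries with and without IL-2v, 2 genes of the axis did not overlap. *Socs2* in CD8 T cells was 8.77 to 37.3 CPM in the 4 with IL-2v and 0 to 6.59 CPM in the 4 without, and 0.524% of genes were higher in this way. The nearest values, 8.77 (7.34 to 10.4) and 6.59 CPM (4.54 to 9.26), had overlapping intervals. The 0 came from 42 cells of untransduced ACT at day 12, where 3 UMIs would give a level above 8.77 CPM. Non-treated tumors had 2 UMIs in 77 cells (4.47 CPM). Of the libraries with IL-2v, all but PD1d/IL-2v ACT also had IL-33. *Socs3* in NK cells was 41.7 to 60.2 CPM with IL-2v and 61.1 to 240 CPM without, and 2.68% of genes were lower in this way. Its nearest values, 60.2 and 61.1 CPM, could not be told apart. Over the 6 ACT libraries of days 5 and 12 the same 2 genes did not overlap, where 1.99% and 8.18% of genes did likewise. *Cish* in CD8 T cells overlapped, at 62.4 to 124 CPM with IL-2v and 48.6 to 98.0 CPM without.

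A split by IL-33, added after the values had been seen, separated both signalling chains. *Il2rg* in CD8 T cells was 315 CPM with PD1d/IL-33 and 284, 301 and 513 CPM at days 5, 12 and 26 of the combination, against 585 CPM in non-treated tumors, 598 and 599 CPM for the untransduced days 5 and 12, and 664 CPM with PD1d/IL-2v. *Il2rb* in CD8 T cells was 267 to 415 CPM with IL-33 and 425 to 696 CPM without. The 425 CPM, of untransduced ACT at day 12, came from 117 UMIs in 42 cells, and 1 cell held 27 of them. Without that cell 343 CPM remained, inside the range with IL-33, so the separation of *Il2rb* rested on it. In CD8 T cells 3.95% of genes were lower with IL-33 without overlap. The order held within both run codes that hold 1 library of each kind at day 12, with *Il2rg* at 315 against 664 CPM in one and 301 against 599 CPM in the other. The same order was found in Foxp3-positive and Foxp3-negative CD4 T cells, where 18.3% and 15.7% of genes shared it. These shares were above the 3.95% of CD8 T cells, so the order was less particular to these genes. Only 2 libraries without IL-33 had enough cells of these classes. The 3 with IL-33 in the Foxp3-positive class were all of the combination. NK cells showed the order only over the 6 ACT libraries of days 5 and 12 (*Il2rb* 769 to 1136 against 1313 to 1713 CPM, *Il2rg* 310 to 406 against 490 to 805 CPM), where 21% of genes did. Over all libraries both genes overlapped in NK cells, since the values with IL-33 reached 1337 CPM for *Il2rb* and 580 CPM for *Il2rg*. Other genes of the axis separated too. *Socs3* in Foxp3-negative cells was at 66.9 to 196 CPM with IL-33 and 244 to 268 CPM without. Over the ACT libraries of days 5 and 12, *Socs3* and *Il2* were lower with IL-33 in CD8 T cells (17.0% of genes were). For *Il2* the nearest values were 2.93 CPM (13 UMIs) at day 5 of the combination and 2.98 CPM (17 UMIs) with PD1d/IL-2v. Without the highest cell of each they were 1.81 and 1.58 CPM, so the separation of *Il2* did not hold. Over the same libraries *Il2ra* was higher with IL-33 in Foxp3-positive cells, from 2 libraries on each side (21.0% of genes were). It was also higher in Foxp3-negative cells, as was *Socs2* (14.8% of genes). The nearest *Il2ra* values of Foxp3-negative cells were 72.1 CPM (37 UMIs) at day 12 of the combination and 70.8 CPM (20 UMIs) with PD1d/IL-2v. Without the highest cell of each they were 61.6 and 64.7 CPM, so that separation did not hold. T cell markers moved with this split. They summed, in CD8 T cells, to 4623 CPM with PD1d/IL-33 and to 3187 and 3812 CPM at days 5 and 12 of the combination, against 5751, 4916 and 4763 CPM in the ACT libraries of those days without IL-33, while day 26 had 5650 CPM and non-treated tumors 6229 CPM. Foxp3-positive cells had 2066 to 3691 CPM of these markers with IL-33 and 3674 and 4275 CPM without, and Foxp3-negative cells 2068 to 3840 CPM and 4197 to 4631 CPM. Their part in the result was not tested. With edgeR's trimmed-mean (TMM) scaling the CD8 T *Il2rg* ratios fell short of 2-fold, at -0.90 for day 5 and -0.99 for day 12, and kept their direction.

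**Figure D4:**
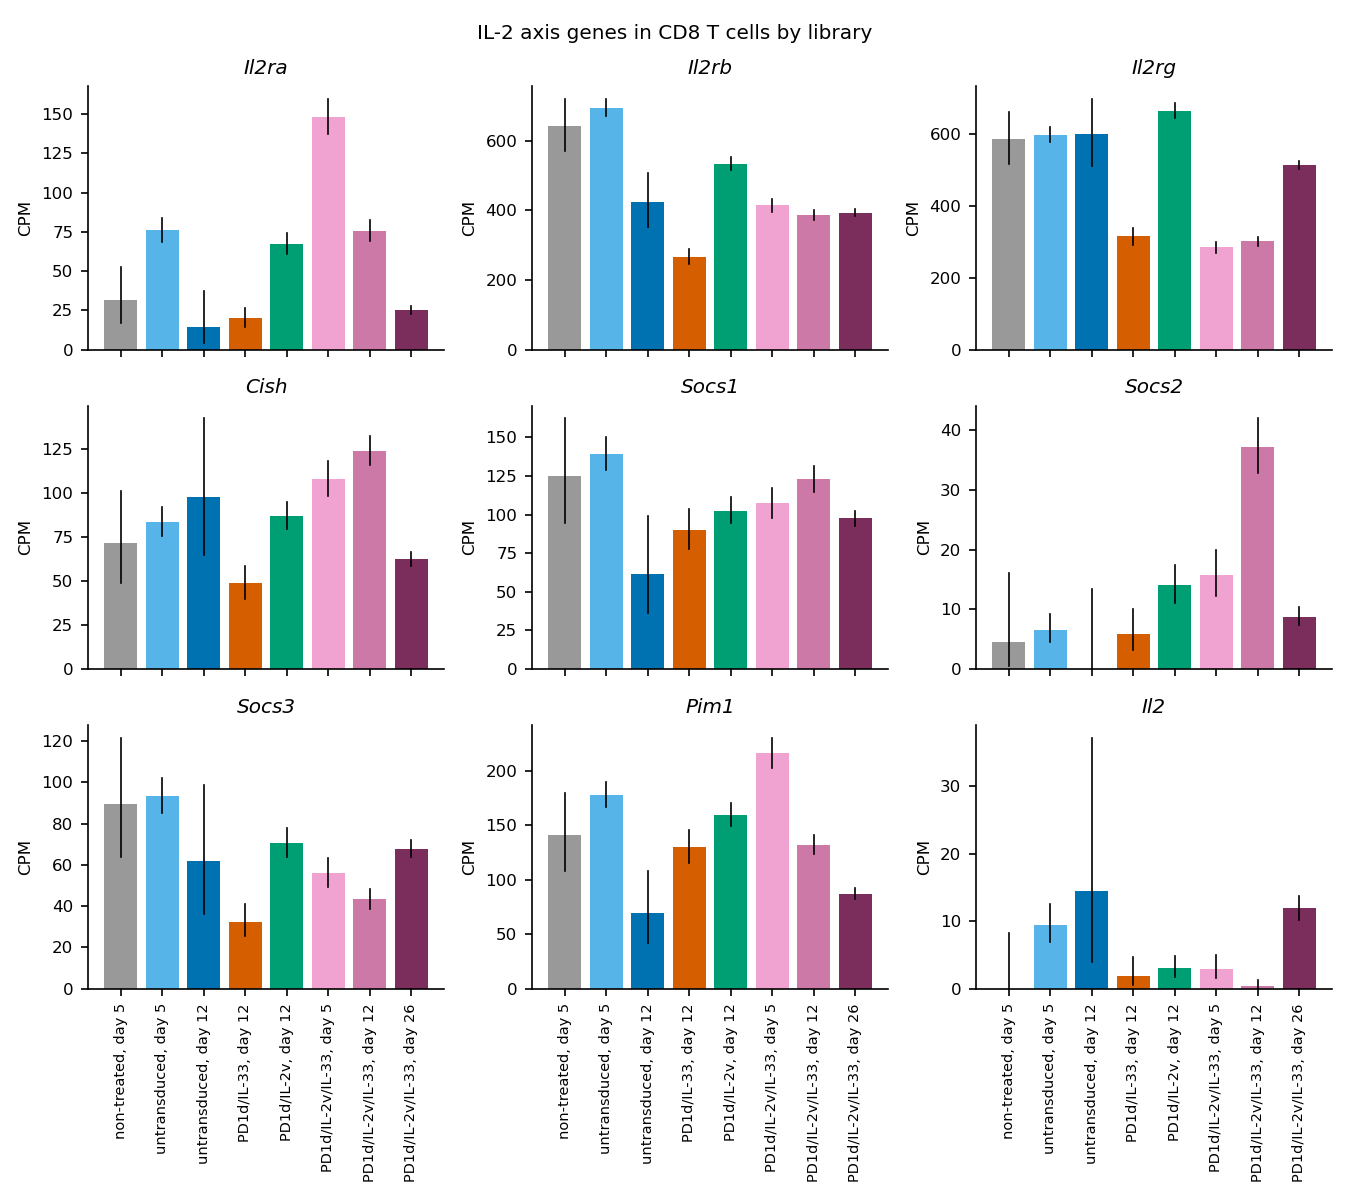
Level of the 9 genes in CD8 T cells in CPM, 1 bar per library from 0, with 95% Poisson intervals. *Il2ra* is at 148 CPM at day 5 of the combination, *Socs2* at 37.3 CPM at its day 12, and *Il2rg* at 315 CPM or less in the 3 libraries with IL-33 before day 26.

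Over time within the combination, *Il2ra* was lower at each later day in CD8 T, both CD4 and type 2 cells, whereas NK cells had 9.15, 24.5 and 25.6 CPM. The NK value of day 26 was 8 UMIs in 4 cells, and 16.3 CPM remained without the highest cell. In CD8 T cells the ratio of day 12 over day 5 was -0.89, with none of 8 genes past 2-fold (0.697% of genes were), and that of day 26 over day 12 was -1.27 (-1.43 to -1.12). *Socs2* stood at 15.8, 37.3 and 8.77 CPM (-1.33 for the second step), and *Cish* was at -0.89 and *Il2* at 1.07 in that step. In all, 1 gene was higher and 2 were lower past 2-fold of 9 between days 12 and 26, against 3.17% of genes. In thinned CD8 T cells, 100 *Il2ra* UMIs lay in 62 of 502 cells at day 5 and 104 in 80 of 734 at day 12. At day 26, 64 lay in 43 of 2301. *Il2ra* UMIs per thinned CD8 T cell were thus lower at each later day. The fall from day 5 to day 12 was smaller than without thinning. Type 2 cells had *Il2ra* at -2.02 (-2.31 to -1.73) from day 5 to day 12, together with *Cish* (-1.13), *Socs1* (-1.43) and *Socs3* (-1.37), 4 of 8 genes where 7.86% were called, and at -1.48 from day 12 to day 26 (10.1% called). A single type 2 cell held 99 of the 298 *Il2ra* UMIs at day 5, and the level was 878 CPM without it. Foxp3-negative CD4 T cells had *Il2ra* at -2.84 from day 5 to day 12 and *Socs2* at 182 and 85.7 CPM, 2 of 8 genes called (3.56% of genes). From day 12 to day 26 they had *Cish* at -1.01, *Socs2* at -1.02 and *Il2* at -1.16, with *Socs3* at 1.11, 4 of 9 called (7.74%). Without the cells with the most UMIs *Il2* was at 1.75 and *Cish* at -0.96, so that 2 of these calls did not hold. Foxp3-positive cells had *Il2ra* at -0.95 in that step and 0 of 8 genes called (8.9%), after 0 of 6 in the step before (2.24%). In NK cells *Pim1* was the 1 gene called of 7 from day 5 to day 12 (-1.15, 1.11% of genes), and 0 of 7 were called from day 12 to day 26 (11.3%). The sole library of day 26 shares its run code with the non-treated library and not with days 5 and 12 of the combination.

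The non-treated library gave 77 CD8 T cells. In untransduced ACT at day 5, *Il2ra* was at 1.06 (0.45 to 1.68) relative to these, the 1 gene called of 7, where 1.97% of genes were, and NK cells had 0 of 6 called (1.71%).

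CD8 T cells with and without an *Il2ra* UMI were compared after thinning each cell to 2000 UMIs, within the 5 libraries with at least 20 cells on both sides. The non-treated library, and untransduced and PD1d/IL-33 ACT at day 12, had too few cells with an *Il2ra* UMI. Among the libraries kept, only untransduced ACT at day 5 lacked IL-2v. The cells with an *Il2ra* UMI numbered 43 to 80 per library. The CD8 T gate did not exclude *Foxp3*, and 1.51% of all CD8 T cells had a *Foxp3* UMI (7.33 CPM). Their part among the cells with an *Il2ra* UMI was not tested. *Cish*, the STAT5 target, was higher in the cells with one in each library. It was 236 against 70.8 CPM with untransduced cells at day 5, 216 against 84.7 CPM with PD1d/IL-2v, and 234 against 90.9, 200.0 against 98.6 and 198 against 60.7 CPM at days 5, 12 and 26 of the combination. The edgeR difference was 1.24 (SE 0.192, adjusted p = 4.28e-08, 5 of 5 libraries), and the 2 sets of levels did not overlap. *Pim1* was higher too, at 425 against 166, 625 against 137, 452 against 172, 169 against 153 and 337 against 83.7 CPM in the same order (1.26, SE 0.164, edgeR adjusted p = 2.34e-11, 5 of 5 libraries). *Socs3* was lower in 5 of 5 libraries, at 0 to 56.6 CPM against 50.5 to 158 CPM (-1.71, SE 0.331, edgeR adjusted p = 3.34e-05). In the same order, the cells with an *Il2ra* UMI held only 6, 2, 0, 5 and 3 *Socs3* UMIs. *Il2* was higher in 4 of 5 (2.88, SE 0.573, edgeR adjusted p = 5.88e-05), with 94.3 against 4.42 CPM in untransduced ACT at day 5 and 81.4 against 12.4 CPM at day 26. Its counts in the cells with an *Il2ra* UMI were 10, 1, 1, 0 and 7 UMIs, so 2 of these 4 libraries rested on 1 UMI each. The part of the single *Il2*-rich cell of untransduced ACT at day 5 was not tested. The *Il2* call was lost without untransduced ACT at day 5 (2.37, adjusted p = 0.0736) and without cycling cells (adjusted p = 0.115), and DESeq2 gave this gene no adjusted p.

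Of the 8 genes tested in this split 3 were called higher and 1 lower, where 172 of 8588 genes (2%) were higher and 250 (2.91%) lower. *Il2rb* (0.08, edgeR adjusted p = 0.881) and *Il2rg* (-0.10, edgeR adjusted p = 0.837) were not called. *Socs2* was at 79.5 against 9.42 CPM after PD1d/IL-2v ACT (7 and 10 UMIs) but at 12.5 against 32.1 CPM at day 12 of the combination (2 and 42 UMIs). Its difference was 1.09 (edgeR adjusted p = 0.238), and 2.14 (adjusted p = 0.015) without that library. *Mki67*, a gene of cycling cells, was at 56.6, 45.5, 121, 62.5 and 11.6 CPM in the cells with an *Il2ra* UMI and at 58.6, 40.5, 117, 44.3 and 24.1 CPM in those without. Under the second cell filter, which left 4 libraries, *Cish* was at 0.89 (adjusted p = 0.106) and *Socs3* at -0.96 (adjusted p = 0.398).

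**Figure D5:**
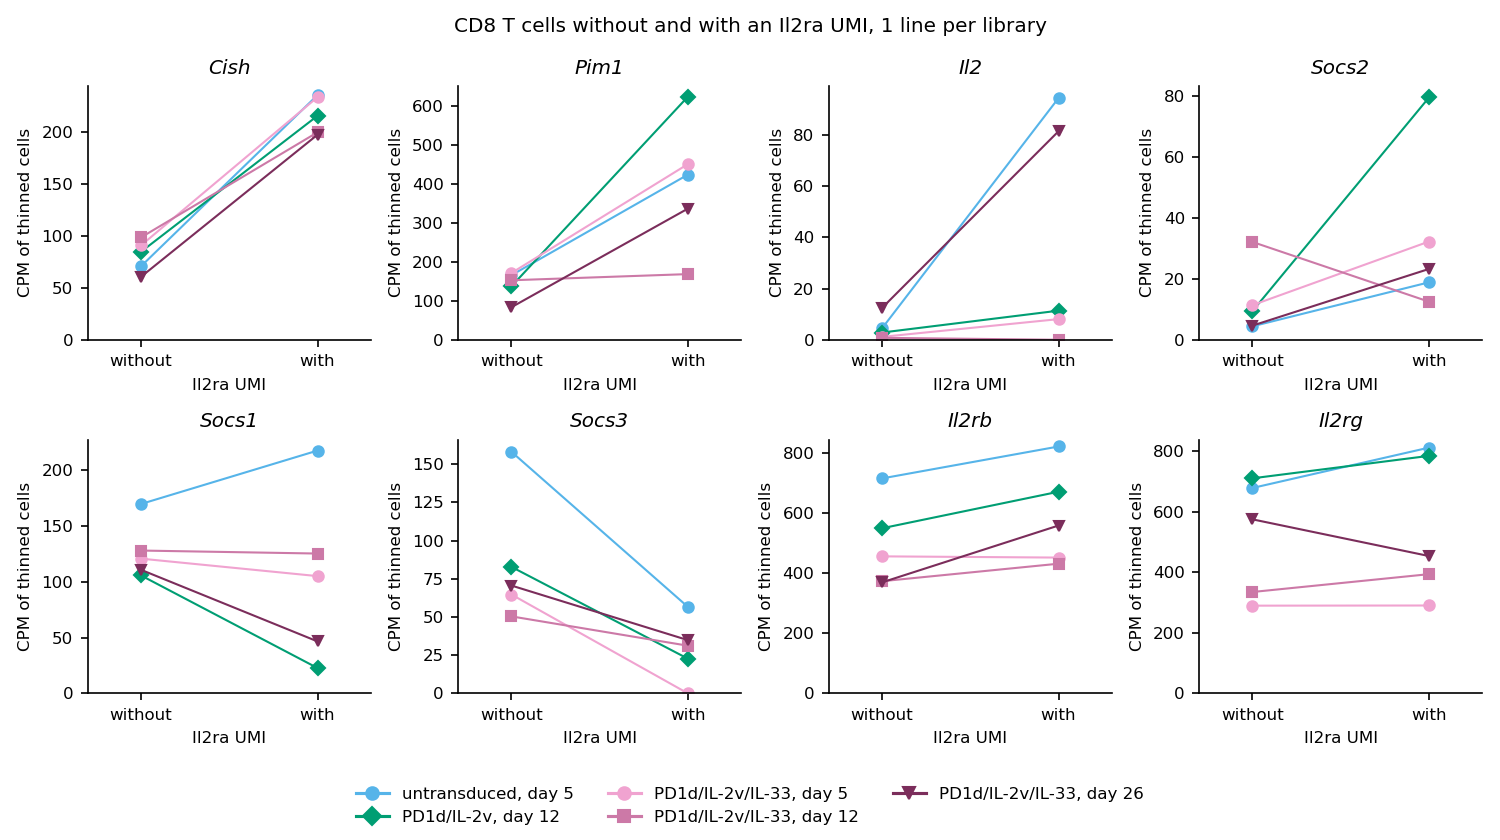
CPM of 8 genes of the axis in CD8 T cells without and with an *Il2ra* UMI, after thinning to 2000 UMIs per cell, 1 line per library. *Cish* is at 60.7 to 98.6 CPM without and 198 to 236 CPM with an *Il2ra* UMI, and *Socs3* falls along each line.

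Other genes of the pathway were read from lists of known genes in the same split. Of 18 tested genes that IL-2 is known to raise, 8 were called higher and 2 lower, against 2% and 2.91% of all genes (median 0.626 on the log2 scale, against -0.147 for all genes). They included *Tnfrsf4*, which encodes the costimulatory receptor OX40 (2.29, edgeR adjusted p = 1.16e-27), and the transcription factor gene *Irf4* (1.72, adjusted p = 8.98e-04), while *Bcl2*, a survival gene, was lower (-0.68, adjusted p = 0.00573). Of 5 genes that IL-2 is known to lower, 2 were called by edgeR, both lower, *Tcf7*, which encodes the factor TCF1 (-2.25, adjusted p = 4.67e-11), and *Il7r*, the IL-7 receptor chain (-0.94, adjusted p = 0.00441). *Jak1*, which encodes a kinase that acts at the IL-2 receptor, was also lower (-0.78, edgeR adjusted p = 3.74e-04). Between Foxp3-positive and Foxp3-negative CD4 T cells, 7 of 19 genes of the first list were higher, led by *Gzmb* (2.19) and *Tnfrsf9* (2.16), and 3 were lower, led by *Bcl2* (-2.88), against 7.51% and 7.11% of all genes. That list holds *Ctla4* and *Tnfrsf18*, which are also among the summed regulatory T cell markers. The counts of this contrast are therefore no measure of IL-2 signalling. Nor are those of the CD8 T split, whose gate did not exclude *Foxp3*.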

How the data were processed

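Counts were analysed as deposited. According to the Methods and labels, the authors sequenced 5′ libraries, counted UMIs per gene and barcode with Cell Ranger and aggregated 8 libraries without normalization of the values. The submitters' processing notes name version 2.2.0 and GRCm38, the Methods another version, and whether reads were subsampled in the aggregation is not given in the sources used here. Barcodes were assigned to libraries through their suffix and the deposited aggregation table.

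Cells were kept with 500 to 6000 genes, 2000 to 40000 UMIs, 5% to 60% ribosomal and less than 10% mitochondrial UMIs. T and NK gates took at least 1 UMI of *Cd3d*, *Cd3e* or *Cd3g* with *Cd8a* or *Cd8b1* and no *Cd4* (CD8 T), the reverse with or without *Foxp3* (CD4), or *Ncr1* without *Cd3*, *Cd4* and *Foxp3* (NK). Type 2 cells needed *Il1rl1* and *Gata3* and none of *Cd8a*, *Cd8b1*, *Cd4*, *Foxp3*, *Ncr1*, *Cpa3*, *Mcpt8* and *Fcer1a*. Each gate required fewer than 2 UMIs of *Csf1r*, *C1qa*, *C1qb*, *Adgre1*, *Cd79a*, *Ms4a1* and *Siglech* together. Macrophage-like cells had at least 2 *C1qa* UMIs, *Csf1r* and no *Cd3*. No doublet caller was run.

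UMIs were summed per class and library of at least 20 cells. Levels are CPM with exact 95% Poisson intervals, and ratios used a pseudocount of 10 CPM and at least 50 UMIs per pair. Classes were compared with edgeR 4.0.16 (R 4.3.3, quasi-likelihood, TMM, library as a block), which pairs classes of the same pooled tumors, at an adjusted p of 0.05 over all genes tested. The genes, lists and tests were chosen with earlier results of these data known, and the genes named beyond the axis are the leading ones of those lists. Python 3.11.15, numpy 2.4.6, scipy 1.17.1, pandas 2.3.3 and matplotlib 3.10.9 were used, with DESeq2 1.42.0 as an alternative, and the tests were run on simulated data first. Other alternatives were a pseudocount of 1 CPM, TMM scaling, a minimum of 10 UMIs, gates of 2 UMIs, no lineage exclusion, the second experiment's cell filter, cells thinned to 2000 UMIs, no cycling cells, cells weighted equally, the other untransduced library and each library left out. A few genes of these lists are not reported here.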

Additional observations from a re-analysis of the deposited data

Results flagged for a closer look

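*Il2* moved in opposite directions in 2 cell classes between days 12 and 26 of PD1d/IL-2v/IL-33 ACT. The log2 ratio was 1.07 in CD8 T cells and -1.16 in Foxp3-negative CD4 T cells, and the difference between the classes was not tested. One cell held 47 of the 48 *Il2* UMIs of the CD4 class at day 12. Without the cell with the most *Il2* UMIs on each side, the ratios were 0.87 in CD8 T cells and 1.75 in Foxp3-negative cells.

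For 4 of the genes a larger share of the UMIs lay in the 4354 passing cells of no class than the 33.5% that these cells held of all UMIs. The shares were 42.6% for *Socs1*, 40.7% for *Socs2*, 72.1% for *Socs3* and 59.7% for *Pim1*. Of these cells, 2462 had no *Cd3* UMI, and 64.8% of those had a UMI of a macrophage marker. They had *Socs3* at 663 CPM (652 to 675) and *Pim1* at 834 CPM (821 to 848), but *Il2ra* at 11.6 CPM. The other 1892 cells had a *Cd3* UMI, and 22.8% of them had a macrophage marker. Their levels were 212 CPM for *Socs3*, 368 CPM for *Pim1* and 123 CPM for *Il2ra*.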

How the results depend on the processing

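In CD8 T cells, for PD1d/IL-2v over untransduced ACT, the untransduced library of day 5 gave 0 genes higher, with *Il2ra* reversed to -0.16 and *Pim1* to -0.15. For the combination over untransduced ACT at day 5 (0 higher, 1 lower), 1 was higher and 2 lower with a pseudocount of 1 CPM, 1 and 0 with TMM scaling, and 3 higher with the day 12 library. In that pair 2 were lower without cycling cells, with cells weighted equally or in thinned cells. For the combination over PD1d/IL-2v ACT, 1 was higher with 1 CPM, TMM (0 lower), gates of 2 UMIs or the second cell filter. For PD1d/IL-33 over untransduced ACT at day 12, 1 was lower with gates of 2 UMIs or thinned cells and 1 higher under the second filter. *Il2* in Foxp3-negative cells from day 12 to day 26 reversed to 1.75 without the highest cells, an alternative added after the data were seen, as was the split by IL-33. No paired analysis was possible because each treatment and day has 1 library.

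For the class tests the library block pairs classes of the same tumors. With no replicate block, 542 genes were called between the CD4 classes (2 of the axis), 2341 between NK and CD8 T cells, 1508 between Foxp3-positive and CD8 T cells (3), 14 between type 2 and Foxp3-negative cells (0) and 20 in the *Il2ra* split (2), against 1178, 3995, 2669, 276 and 422 with it. *Il2ra* between the CD4 classes was then at 1.73 (adjusted p = 0.151). DESeq2 called 640, 105 (1 of the axis) and 171 genes in the CD4, type 2 and split contrasts and 3 genes of the axis between Foxp3-positive and CD8 T cells. Gates of 2 UMIs gave 580, 1566 and 159 genes for the CD4, Foxp3-positive against CD8 T and type 2 contrasts, the first 2 from 3 libraries, with *Il2rb* between the CD4 classes at 0.27 (adjusted p = 0.437). *Socs2* between the CD4 classes was then at 1.56 (edgeR adjusted p = 0.0118). The type 2 contrast had 509 genes with no minimum of UMIs, 106 (1) under the second filter, which left 2 libraries, and 125 (1) without cycling cells, and the split had 148 (2) under that filter.

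Leaving out 1 library at a time gave 747 to 1112 genes for the CD4 classes (3 to 4 of the axis, fewest without day 26), 3271 to 3935 for NK against CD8 T cells (4 to 5), 1741 to 2428 for Foxp3-positive against CD8 T cells (4 to 5, fewest without PD1d/IL-2v ACT), 22 to 568 for type 2 cells (0 to 3, fewest without day 12 and most without day 5) and 202 to 446 for the split (3 to 5). In the split, 248, 254, 281 and 202 were called without untransduced ACT at day 5, PD1d/IL-2v ACT, and days 5 and 26 of the combination. Of the remaining log2 ratios and folds none changed sign while called. The untransduced library of day 12 and the non-treated library limit precision, with 42 and 77 CD8 T cells.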

Other observations

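Over 30 sums of a class in a library (5 classes, 8 libraries, 7798 genes compared), the genes whose log2 level was among the most like that of *Il2ra* included *Fabp5* (Pearson r = 0.926), *Pqlc1* (0.922), *Rilpl2* (0.903) and *Gm2a* (0.894). Within the axis, *Socs2* had 0.792, *Cish* 0.708 and *Il2rb* -0.522. The genes most like *Cish* were *Ltb4r1* (0.876), *Fam46a* (0.875), *Mapkapk3* (0.859), *Il1rl1* (0.852) and *Cpm* (0.848), with *Socs2* at 0.808 and *Il2rb* at -0.666. These sums share libraries, depth and cell classes, so the values are descriptions.

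Macrophage-like cells, which had almost no *Il2ra* or *Il2rb* UMIs, had UMIs of each feedback gene. After PD1d/IL-2v ACT and at day 5 of the combination, *Socs3* stood at 545 and 705 CPM, *Pim1* at 592 and 1122 CPM, *Socs1* at 98.0 and 239 CPM, *Cish* at 32.7 and 279 CPM and *Socs2* at 7.26 and 24.1 CPM. Both libraries had at least 20 such cells.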
